A study of Mus musculus with 12 samples.

Results

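The livers of mice without histone deacetylase 6 (HDAC6) were set against the livers of wild-type mice on regular chow, as 3 arrays against 3, which are 6 of the 12 arrays of the series. The arrays were chosen by their labels alone, and no measured value was used. All 12 arrays came from RNA of the whole liver of female C57BL/6 mice aged 8 to 12 weeks, with 100 ng of total RNA amplified and labelled with biotin for Affymetrix Mouse430A arrays. The HDAC6 knockout group carried the genotype HDAC6-/-, and the chow group was wild type on regular chow, in which fat supplied 25% of the calories. The remaining groups, used here only for contrast, were 3 HDAC9-/- arrays and 3 arrays of wild-type mice on a high-fat diet, in which fat supplied 60%. The labels give no diet for either knockout, so genotype and diet cannot be told apart where a knockout is set against a wild-type group. They also do not say which part of the Hdac6 gene was removed, whether the wild-type mice were littermates, or that each array came from its own mouse. P-values therefore measure the spread between these samples.

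HDAC6 is an unusual member of its family because it works mostly in the cytoplasm. It removes acetyl groups from alpha-tubulin, from the actin-binding protein cortactin and from the chaperone HSP90. Through a ubiquitin-binding zinc finger it also ties polyubiquitinated misfolded proteins to dynein motors, which carry them along microtubules to the aggresome for autophagy, and it takes part in the heat shock response. These are changes of proteins, which an RNA array does not read. The arrays show only whether the transcripts of these systems, and of the liver's own pathways, stood at other levels when the gene was missing.

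Values are given as log2 expression of a probe set, so a difference of 1 is a 2-fold difference in signal, and 12393 genes were tested with 1 probe set each. Array medians lay between 5.78 and 5.86, and pairs of arrays correlated at 0.987 to 0.997. A difference between the groups had a median standard error (SE) of 0.124. The root-mean-square distance between 2 arrays over all genes was 0.204 to 0.338 within the knockout group, 0.225 to 0.296 within the chow group and 0.221 to 0.359 between them, and these ranges overlap. Hepatocyte markers were even: 4 of 8 had a higher and 4 a lower mean in the knockout, and albumin (Alb) read 14.162, 14.203 and 14.247 against 14.177, 14.183 and 14.199. One array outside the comparison, HDAC9 knockout replicate 2, had high transcripts of the exocrine pancreas (summary level of 15 pancreas genes 3.58 above their mean over all arrays, against -0.62 to -0.26 in the HDAC6 knockout arrays and -0.44 to -0.34 in the chow arrays). It entered the estimate of spread, the mean over 12 arrays that chose each gene's probe set and from which group levels are measured, and the direct contrast of the 2 knockouts, but not the difference from chow.

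Hdac6 itself was the clearest difference. Its probe set read 6.17, 6.16 and 6.50 in the knockout arrays and 7.89, 7.98 and 7.86 in the chow arrays. Every knockout array lay far below every chow array, and the gap was several times the spread within either group. Hdac6 fell by 1.63 on the log2 scale, 3.10-fold (SE 0.133, limma adjusted p = 6.79e-05, n = 3 per group). The HDAC9 knockout arrays (7.96, 7.95 and 8.03) and the high-fat arrays (7.46, 7.97 and 7.80) also lay above every HDAC6 knockout array, so the transcript went with its own genotype label. What part of the signal that remained came from RNA of the altered allele was not tested, because the position of the deletion relative to the probes was not given in the sources used here.

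The rest of the histone deacetylase family stood close to chow. Of the 8 classical deacetylases measured, Hdac6 was the only one to pass the threshold. The next by p-value was Hdac5, a signal-regulated class IIa member, with 7.91, 7.81 and 8.08 against 7.94, 7.33 and 7.69 (log2 fold change 0.28, SE 0.140, adjusted p = 0.865), and its groups overlapped. Hdac3, the catalytic subunit of the nuclear receptor corepressor complexes, read 8.32, 8.28 and 8.37 against 8.21, 8.17 and 8.17, without overlap (log2 difference 0.14, SE 0.091, adjusted p = 0.883). The remaining 5 had log2 fold changes of -0.03 for Hdac1 and -0.09 for Hdac2, the nuclear class I pair, 0.12 for Hdac7, 0.00 for Hdac9 and 0.15 for Hdac11, with SEs between 0.101 and 0.141. The second probe set of Hdac11 had -0.03. The only Hdac9 probe set was dim, with 4.04, 4.17 and 4.40 in the HDAC9 knockout arrays against 4.39, 4.325 and 4.18 in chow. It did not separate even that knockout from chow, so its value here says little about Hdac9. The NAD-dependent deacetylases were as near to chow, with log2 fold changes of -0.05 for Sirt1, -0.01 for Sirt2, 0.03 for Sirt3 and for Sirt4, and 0.13 for Sirt7, the smallest adjusted p being 0.923. Sirt2, which shares alpha-tubulin with HDAC6 as a substrate, read 8.69, 8.74 and 8.81 against 8.77, 8.72 and 8.79. Differences of the size of these SEs were not detectable with 3 arrays per group.

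Over all genes, 2 of 12393 passed an adjusted p under 0.05 (0.0161%): Hdac6, which was lower, and Rab38, which was higher. At an unadjusted p under 0.05 there were 715 genes (5.77%), 340 higher (2.74%) and 375 lower (3.03%). The groups did not overlap for 1256 genes (10.1%), 598 higher (4.83%) and 658 lower (5.31%), and 22 genes (0.178%) differed at least 2-fold. More genes had a lower mean (54.3%) than a higher one (45.6%) in the knockout, and the median log2 fold change was -0.01. Counts for gene groups below are to be read against these shares, and a gene described by its values without an adjusted p under 0.05 did not pass.

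**Figure D1:**
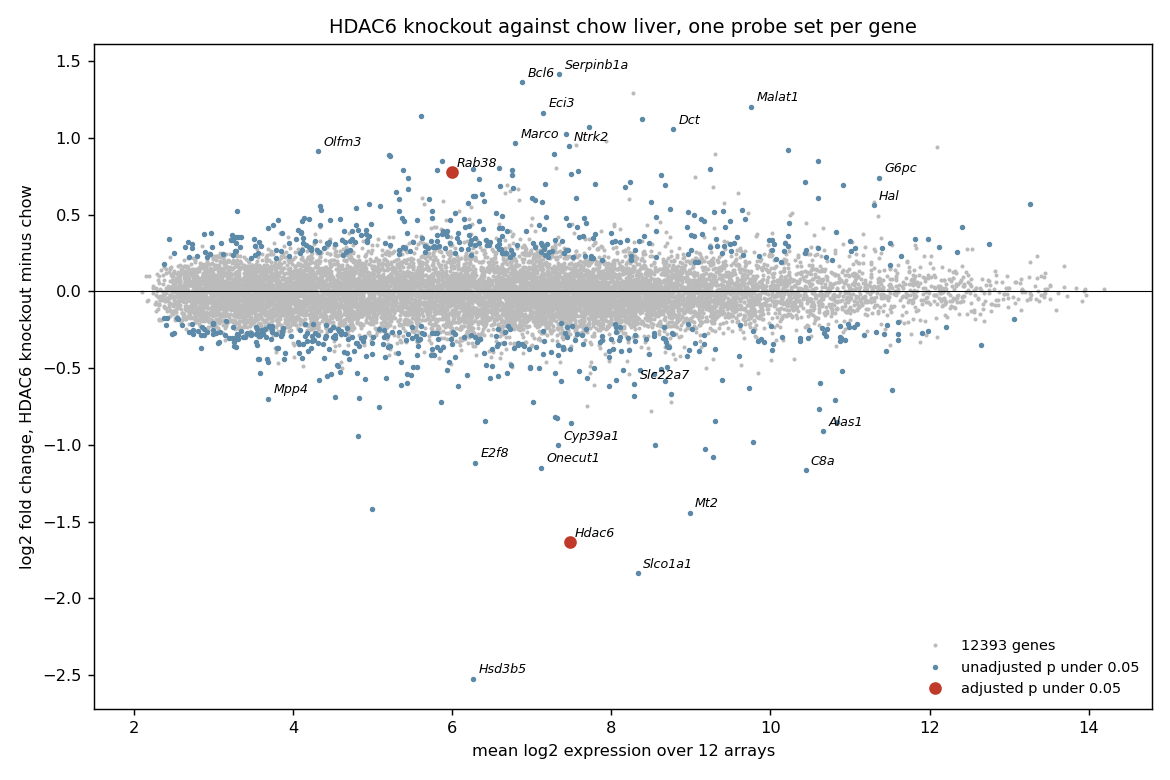
Each point is a gene, placed by its mean log2 expression over the 12 arrays and its log2 fold change in the HDAC6 knockout against chow. Red points are Hdac6 and Rab38, the genes with an adjusted p under 0.05, blue points have an unadjusted p under 0.05, and larger differences such as those of Hsd3b5 and Slco1a1 did not pass, with arrays that were spread widely.

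Rab38 encodes a small GTPase that steers vesicles carrying melanin enzymes and other cargo of lysosome-related organelles. It read 6.46, 6.32 and 6.58 in the knockout arrays and 5.73, 5.59 and 5.69 in the chow arrays, a clean separation. The log2 fold change was 0.78, or 1.71-fold (SE 0.113, limma adjusted p = 0.0410, n = 3 per group). The call was a narrow one. Refits that each dropped 1 of the 6 arrays gave adjusted p from 0.0661 to 0.163, none past the threshold. It was also lost when HDAC9 knockout replicate 2 was kept out of the shared spread (adjusted p = 0.0753), under quantile normalization (0.0715), under median centring (0.0673) and with the 6 arrays alone (0.122). The HDAC9 knockout arrays read 6.15, 6.11 and 6.27, above every chow array as well, and the direct difference between the 2 knockouts was 0.27 (SE 0.113, adjusted p = 0.9998, not past the threshold). The high-fat arrays read 5.61, 5.59 and 5.85, overlapping the chow arrays, and against them Rab38 was 1.70-fold higher in the HDAC6 knockout (log2 fold change 0.77, adjusted p = 0.00928).

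Dct, which encodes dopachrome tautomerase, an enzyme of melanin synthesis, was the gene of next smallest p on the higher side. It read 9.39, 9.41 and 9.23 against 7.81, 8.46 and 8.59, so the knockout arrays were tight and the chow arrays spread, with chow replicate 1 lowest. The log2 fold change was 1.06 (SE 0.173, adjusted p = 0.0937). The HDAC9 knockout arrays, at 8.79, 8.95 and 8.85, also lay above the chow arrays. Of 24 melanosome and melanin genes measured, 19 had a higher and 5 a lower mean. Without overlap and higher were 3 (12.5%, against 4.83% of all genes), namely Rab38, Dct and Tyrp1, and none was without overlap and lower. This gene group was chosen with earlier results of these data known, and Rab38 and Dct are counted in it, so the count is no separate support for them. The median log2 fold change was 0.06 beside -0.01 for all genes. The median ran from 0.04 to 0.09 with 1 array left out. Against the same chow arrays, the median of these genes was 0.05 in the HDAC9 knockout and 0.01 on high fat. Of further genes that define pigment cells, Tyr, the tyrosinase that begins melanin synthesis, read 2.66, 2.82 and 3.28 against 2.74, 2.95 and 2.89, Tyrp1, a further enzyme of melanin, differed by 0.11, and Pmel, the fibre protein of melanosomes, by -0.02. Mitf, the transcription factor of the pigment lineage, read 6.37, 6.15 and 6.25 against 6.37, 6.35 and 5.86. Of 37 Rab GTPases measured, 20 had a higher and 17 a lower mean, with a median of 0.01, and Rab38 was the only one past the threshold.

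**Figure D2:**
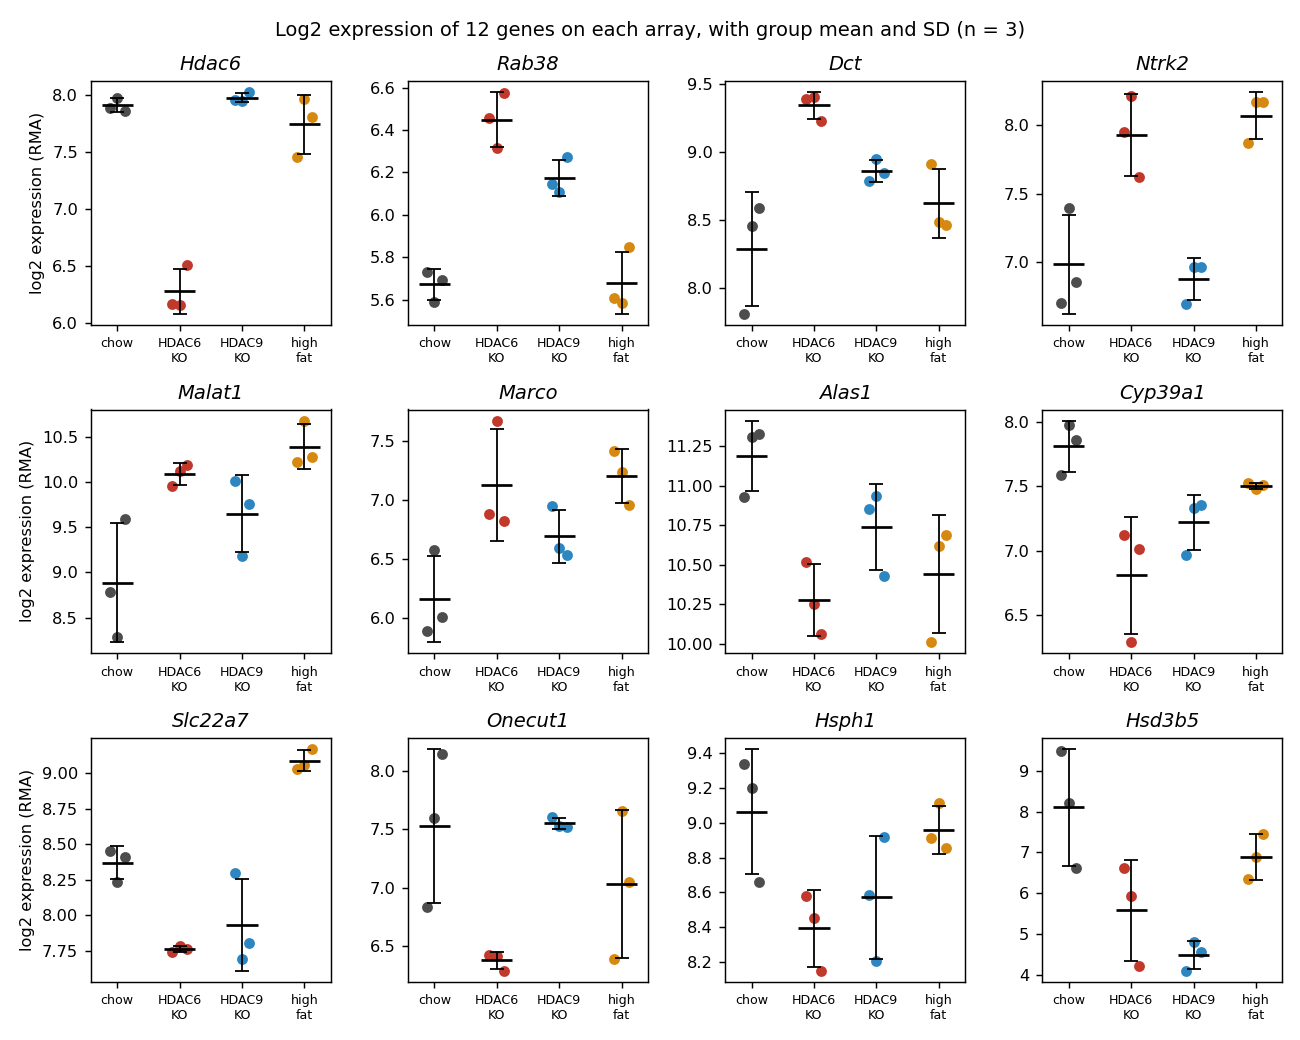
Log2 expression of 12 genes on every array, grouped as chow, HDAC6 knockout, HDAC9 knockout and high fat, with bars for the mean and SD of 3 arrays. Hdac6 separates the HDAC6 knockout from all 3 other groups, Rab38 and Dct are highest there with the HDAC9 knockout between it and chow, and Onecut1 and Hsd3b5 show wide spread among the chow arrays.

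None of the measured genes beside the 2 called genes on their chromosomes passed the threshold. Of the 16 nearest genes to Hdac6 on the X chromosome, 12 were measured, 4 with a higher and 8 with a lower mean, and log2 fold changes ran from -0.27 to 0.20. The lowest was Pim2, a survival kinase, with 5.60, 5.37 and 5.57 against 5.95, 5.805 and 5.59 (adjusted p = 0.846). Around Rab38, 9 of 16 were measured, 6 higher and 3 lower, from -0.24 to 0.27. The highest was the secreted protease Prss23, with 5.43, 5.60 and 5.50 against 4.995, 5.35 and 5.39 (adjusted p = 0.852).

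Among genes on the higher side that did not pass, several had arrays that separated cleanly. Ntrk2, the receptor of brain-derived neurotrophic factor, read 7.95, 8.22 and 7.62 against 6.71, 7.39 and 6.86 (log2 fold change 0.95, SE 0.181, adjusted p = 0.150), and its second, dimmer probe set differed by 0.15. The high-fat arrays, at 7.87, 8.17 and 8.17, were as high as the knockout for Ntrk2. Sorl1, a sorting receptor of the endosome, read 5.84, 6.52 and 6.45 against 5.46, 5.55 and 5.26 (0.85, SE 0.155, adjusted p = 0.134), but its second probe set had -0.10. Hal, which begins the breakdown of histidine, read 11.64, 11.54 and 11.76 against 11.13, 10.86 and 11.27 (0.56, SE 0.122, adjusted p = 0.292). Further members of the 12 of smallest p were Olfm3 (0.91), Resf1 (0.58), a silencer of endogenous retroviruses, Rasgrp2 (0.67), Ms4a7 (0.79), a macrophage surface protein, Tmem45b (0.53), Dkk3 (0.53) and Ciita (0.57), with adjusted p from 0.118 to 0.292. Other probe sets of these genes differed by less, with 0.06 and 0.49 for Olfm3, 0.23 and 0.20 for Resf1, 0.09 and 0.32 for Rasgrp2, 0.25 for Dkk3 and 0.36 for Ciita. Olfm3, Tmem45b and Dkk3 were dim, with mean signals under the 25th percentile of all genes (4.39).

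The largest higher values among genes at an unadjusted p under 0.05 were often uneven. Serpinb1a, an inhibitor of neutrophil proteases, read 7.92, 8.82 and 8.67 against 6.52, 7.24 and 7.41 (1.42, SE 0.530, adjusted p = 0.760). Bcl6, a repressor that in liver opposes STAT5 and is higher in males, read 8.39, 8.56 and 7.42 against 8.18, 6.16 and 5.95, so chow replicate 1 lay among the knockout arrays (1.36, SE 0.577, adjusted p = 0.838). Eci3, a peroxisomal isomerase of fatty acid oxidation, read 7.25, 7.91 and 8.13 against 5.76, 6.97 and 7.06 (1.16, SE 0.337, adjusted p = 0.662). Malat1, a long nuclear RNA, read 9.96, 10.13 and 10.19 against 8.78, 8.29 and 9.59 (1.20, SE 0.264, adjusted p = 0.292), with the chow arrays widely spread. Cyp3a44 (1.12), Gadd45g (1.07) and the magnesium transporter Slc41a2 (1.03) followed, with adjusted p of 0.770 to 0.838, and the first of these 3 and Gadd45g overlapped between the groups.

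On the lower side the genes of smallest p included enzymes and transporters of hepatocytes. Alas1, which makes the first intermediate of heme and limits its rate in liver, read 10.51, 10.25 and 10.06 against 10.93, 11.31 and 11.33 (-0.91, SE 0.185, adjusted p = 0.214), and its second probe set had -0.91 as well. Of 18 genes of heme synthesis and breakdown measured, Alas1 included, 10 had a higher and 8 a lower mean, with a median of 0.02. Cyp39a1, which hydroxylates an oxysterol on a minor route to bile acids, read 7.12, 6.29 and 7.01 against 7.59, 7.98 and 7.86 (-1.002, SE 0.186, adjusted p = 0.135). Cyp7a1, the rate-limiting enzyme of the main route, read 8.66, 9.95 and 9.63 against 10.48, 10.70 and 10.01 (-0.98, SE 0.303, adjusted p = 0.722). The 26 measured genes of bile acid synthesis and transport divided evenly, 13 higher and 13 lower, with 4 without overlap and lower (Cyp7a1, Cyp39a1, Akr1c6 and Fgfr4) and none without overlap and higher.

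Slc22a7, an organic anion transporter of the hepatocyte membrane, was the tightest of these genes, with 7.74, 7.79 and 7.76 against 8.46, 8.24 and 8.41 (-0.61, SE 0.134, adjusted p = 0.302). Onecut1, a hepatocyte transcription factor (also known as HNF6), read 6.43, 6.42 and 6.29 against 6.84, 7.60 and 8.15 (-1.15, SE 0.293, adjusted p = 0.518), and its second probe set had -1.14. The knockout arrays of Onecut1 were tight, the chow arrays spread over more than 1 unit, and 1 high-fat array (6.39) lay as low as the knockout. Hao1, the glycolate oxidase of peroxisomes, read 10.89, 10.67 and 10.31 against 11.19, 11.11 and 11.14 (-0.52, SE 0.123, adjusted p = 0.385). Mpp4 (-0.70, adjusted p = 0.0937), Fkbp5 (-0.68, adjusted p = 0.559), a co-chaperone induced by glucocorticoids, and Nmrk1 (-0.49, adjusted p = 0.559), a kinase of NAD synthesis, were also among the 12. The second probe sets of Fkbp5 and Nmrk1 had 0.13 and 0.03. Mpp4 was dim, with 3.54, 3.54 and 3.33 against 3.93, 4.30 and 4.27, under the 25th percentile of mean signal (4.39).

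Larger lower values were seen for Mt2, a metal-binding metallothionein, with 7.79, 7.80 and 9.33 against 9.20, 9.19 and 10.87 (-1.44, SE 0.541, adjusted p = 0.760). Replicate 3 was the highest array of both groups for Mt2. Angptl8, a feeding-induced inhibitor of lipoprotein lipase, read 8.66, 8.66 and 8.45 against 9.81, 9.92 and 9.28 (-1.08, SE 0.351, adjusted p = 0.727). C8a and C8b, chains of the complement membrane attack complex, had -1.16 and -1.03, both without overlap (adjusted p = 0.727 and 0.585). E2f8, a repressor of the cell cycle that goes with polyploidy in hepatocytes, read 6.32, 5.78 and 5.74 against 6.90, 7.17 and 7.11 (-1.12, SE 0.318, adjusted p = 0.662).

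Gene groups (pathways, zones and cell type markers) were described by counts and medians, without a test of the group. Of 67 such groups, 50 had a median log2 fold change within 0.1 of that of all genes, 11 lay further above and 6 further below, and 3 contained a called gene (the deacetylases, the melanosome genes and the Rab GTPases). The level of a group on an array was the median over its members of the log2 value minus the member's mean over 12 arrays. By that level the knockout arrays lay wholly above the chow arrays in 4 gene groups (melanosome, periportal, MHC class I and stellate cell genes). They lay wholly below in 5 (cell cycle, circadian clock, organic anion and cation transporters, male-biased genes, and growth hormone and STAT5). These 4 and 5 of 67 are to be read beside the 10.1% of single genes without overlap. Some gaps were very small, as for MHC class I (-0.025, -0.008 and 0.018 against -0.031, -0.067 and -0.076).

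**Figure D3:**
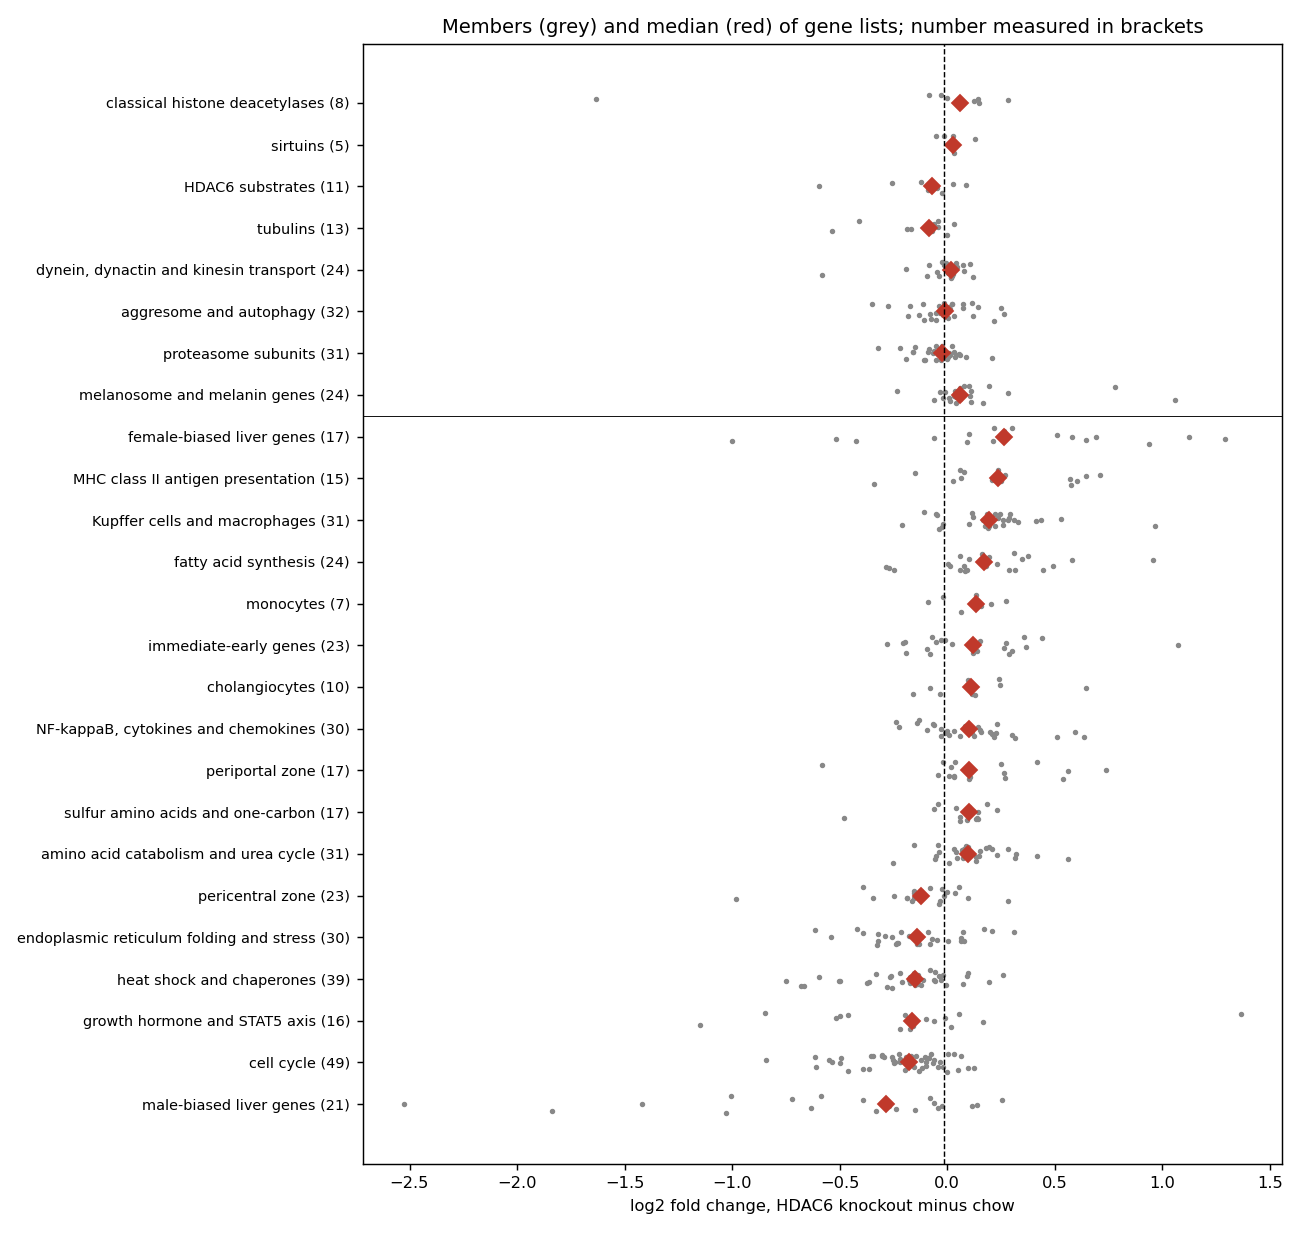
Log2 fold changes of the HDAC6 knockout against chow for the members (grey) and the median (red) of gene groups, with all-gene median as a dashed line. The 8 groups above the horizontal line are those nearest to HDAC6 and the called genes, and the 17 below it are those whose medians lay more than 0.1 from that of all genes, from female-biased liver genes (0.26) at the top to male-biased ones (-0.28) at the bottom.

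The proteins that HDAC6 acts on, and the machinery it serves, stood near chow as transcripts. Of 11 genes for substrates, 2 had a higher and 9 a lower mean, with a median of -0.07. That median was -0.03 to -0.12 with 1 array left out (-0.12 without chow replicate 3), and 0.020 with array weights. Hsp90aa1, the inducible HSP90, read 10.39, 10.24 and 10.02 against 11.002, 10.92 and 10.51 (-0.59, SE 0.206, adjusted p = 0.757). The constitutive chaperone Hspa8 read 11.73, 11.87 and 11.85 against 12.04, 12.28 and 11.90 (-0.26, SE 0.104, adjusted p = 0.816). Cttn, which encodes cortactin, read 9.55, 9.54 and 9.35 against 9.24, 9.61 and 9.33 (0.09). Of the alpha-tubulins measured, Tuba4a differed by -0.06 and Tuba1a by -0.07. Tuba8, an isotype of low signal here, had 4.08, 4.36 and 4.26 against 4.36, 5.23 and 4.72 (-0.54, adjusted p = 0.760). In all, 12 of 13 tubulins had a lower mean, with a median of -0.08, and only Tuba8 was without overlap. Chow replicate 2 had the highest level of this group (0.24, against -0.03 and -0.10 in the other chow arrays), and without it the median was -0.04. It was -0.16 without chow replicate 3, and 0.020 with array weights.

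The motors of microtubule transport, 24 genes of dynein, dynactin and kinesin, had 15 higher and 9 lower means and a median of 0.02. Dynll1, a light chain of dynein, stood apart from them with 9.28, 9.11 and 8.98 against 9.98, 9.88 and 9.25 (-0.58, SE 0.181, adjusted p = 0.722). Genes of the aggresome and of autophagy divided 15 to 17, with a median of -0.01. Wipi1, which reads the lipid of forming autophagosomes, had -0.35 without overlap (adjusted p = 0.727). Over the alternative settings Wipi1 ran from -0.42 to -0.01. Sqstm1, the p62 receptor that brings ubiquitinated cargo to autophagy, read 10.35, 10.21 and 10.27 against 10.31, 9.56 and 10.17 (0.27, adjusted p = 0.873). The 31 proteasome subunits had a median of -0.03 and the 14 ubiquitin genes and ligases one of -0.06.

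Most heat shock and chaperone genes had lower means in the knockout. Of 39 measured, 34 had a lower mean and 5 a higher one, 11 (28.2%) were without overlap and lower against 5.31% of all genes, and none was without overlap and higher. The median was -0.15, and no member passed the threshold. Hsph1, a nucleotide exchange factor for HSP70, read 8.58, 8.46 and 8.15 against 9.34, 9.20 and 8.66 (-0.67, SE 0.190, adjusted p = 0.662). Hspa4l, a relative of it, had -0.50, and Hspa1b, the inducible HSP70, read 7.46, 7.44 and 7.14 against 7.71, 8.66 and 7.91 (-0.75, SE 0.359, adjusted p = 0.865). As a level, the group stood at -0.03, -0.07 and -0.20 in the knockout arrays and at 0.11, 0.13 and -0.05 in the chow arrays, so chow replicate 3 lay among the knockout arrays. The median moved to -0.10 without HDAC6 knockout replicate 3 and to -0.20 without replicate 1.

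Heat shock genes are switched on by HSF1, which binds repeats of the unit GAA and its complement TTC. To show what such a repeat looks like in these genes, the window from 250 bases before to 50 after the gene start was searched on both strands in the promoter sequences of RefSeq (build GRCm38.p6) for GAA, TTC and GAA in turn, with any 2 bases between units. The repeat stood in 5 of the 33 heat shock genes with a promoter entry (15.2%) and in 0.662% of all 27025 genes with such an entry. Its shorter form GAANNTTC, which every longer match contains, stood in 14 (42.4%) and 9.04%. The 5 stretches are printed 5′ to 3′ on the strand of the gene with the matched bases in capitals, cut where the window ended. Those of Hspd1 and Hspe1 are the same stretch read from opposite strands, because these genes start back to back.
Hsph1, chr5:149636287-149636320, minus strand: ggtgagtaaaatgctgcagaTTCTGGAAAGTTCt
Hspd1, chr1:55088039-55088096, minus strand: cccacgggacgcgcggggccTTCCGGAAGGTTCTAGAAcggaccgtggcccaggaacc
Hspe1, chr1:55088039-55088096, plus strand: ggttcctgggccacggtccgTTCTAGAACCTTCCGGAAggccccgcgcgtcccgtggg
Dnajb6, chr5:29735832-29735884, plus strand: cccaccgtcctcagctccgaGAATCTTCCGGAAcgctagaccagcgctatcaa
Chordc1, chr9:18292243-18292305, plus strand: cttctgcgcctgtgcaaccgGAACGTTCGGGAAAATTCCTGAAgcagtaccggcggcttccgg

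The log2 fold changes of these 5 genes were unequal. Against Hsph1 at -0.67, the co-chaperone Chordc1 read 9.02, 8.76 and 8.39 against 8.96, 9.23 and 8.81 (-0.28), and Dnajb6, a suppressor of aggregation, read 10.33, 10.25 and 10.04 against 10.32, 10.34 and 10.32 (-0.12). Hspd1 and Hspe1, the mitochondrial chaperonin pair with the shared stretch, differed by -0.11 and -0.06. Chordc1, Dnajb6, Hspd1 and Hspe1 are named for the sequence match and not for their values.

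Most folding genes of the endoplasmic reticulum also had lower means. Of 30, 22 had a lower and 8 a higher mean, 8 were without overlap and lower (26.7%, against 5.31% of all genes), none without overlap and higher, and the median was -0.14. Dnajc3, an inhibitor of the stress kinase PERK, read 10.72, 10.50 and 10.49 against 10.99, 10.75 and 10.82 (-0.29, SE 0.098, adjusted p = 0.750). Pdia3, a disulfide isomerase, had -0.32, Dnajb11 -0.39 and Sdf2l1 -0.61. Hspa5, the chaperone BiP, read 12.01, 12.14 and 12.19 against 12.24, 12.32 and 11.93 (-0.05). Chow replicate 1 had the highest level of the group (0.21), and chow replicate 3 (-0.07) lay with the knockout arrays (0.02, -0.09 and -0.07). Against the same chow arrays, the median of the group was -0.04 in the HDAC9 knockout and -0.13 on high fat.

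Cell cycle genes were lower by mean in 43 of 49, without overlap in 9 (18.4%, against 5.31% of all genes), and had a median of -0.18. Rrm2, a subunit of ribonucleotide reductase, read 6.09, 5.96 and 5.68 against 6.52, 6.76 and 6.29 (-0.61, SE 0.178, adjusted p = 0.662). Ccna2, cyclin A2, read 5.17, 5.17 and 5.09 against 5.69, 6.18 and 5.39 (-0.61, SE 0.180, adjusted p = 0.674). Spc25 had -0.84 with overlap and Birc5 -0.53 without. Over the alternative settings Spc25 ran from -1.14 to -0.09. The level of the group was -0.09, -0.12 and -0.05 in the knockout and 0.10, 0.23 and -0.02 in the chow arrays, without overlap. The HDAC9 knockout arrays, at -0.14, -0.02 and -0.15, overlapped those of the HDAC6 knockout.

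**Figure D4:**
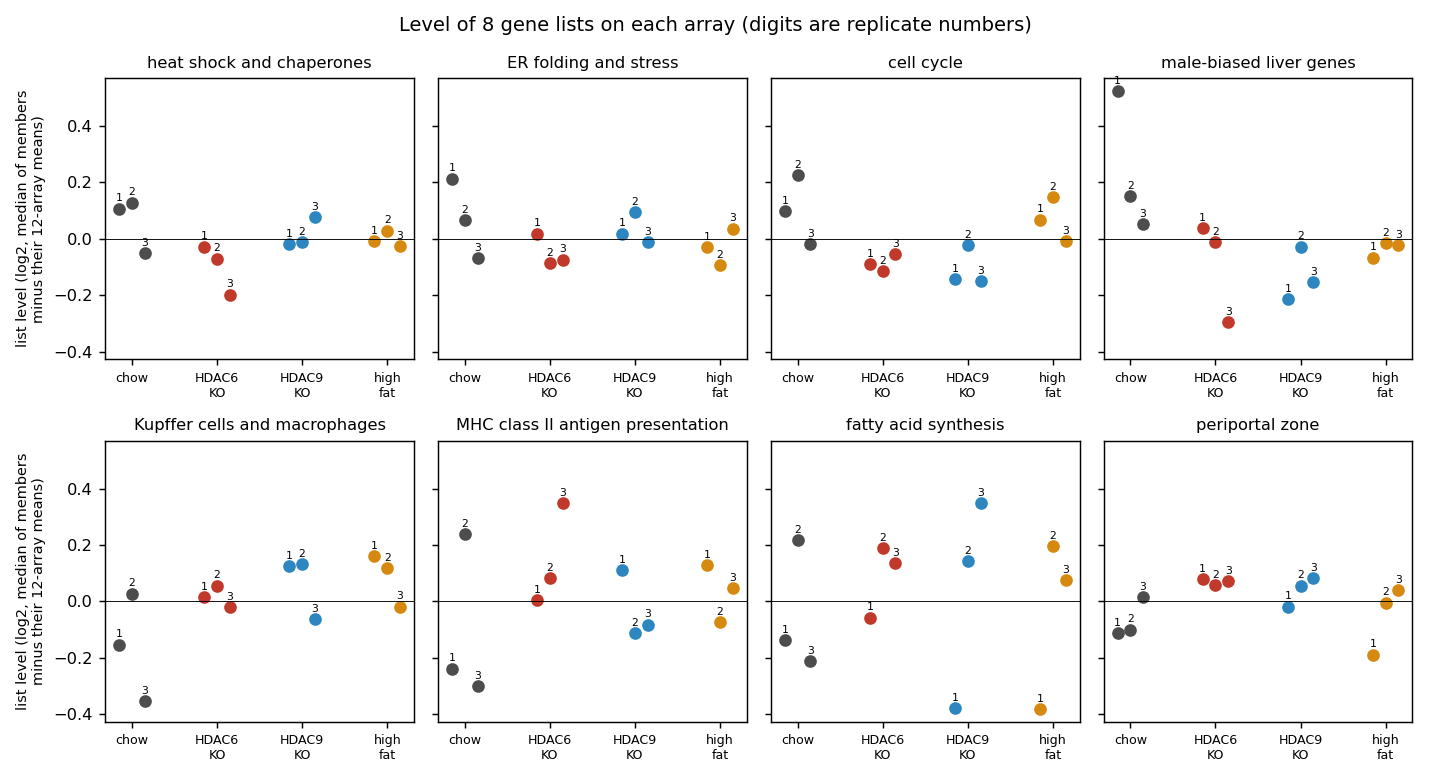
Level of 8 gene groups on each of the 12 arrays, as the median over members of log2 value minus the member's mean over all arrays, with replicate numbers beside the points. In the cell cycle, male-biased and periportal panels the 3 HDAC6 knockout arrays lie wholly apart from the 3 chow arrays, and in the other 5 panels the groups overlap.

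Sex-biased liver genes varied among arrays of 1 group. All animals were female, and the male-biased genes of liver are kept low in females by the steady pattern of growth hormone. Of 21 measured, 18 had a lower and 3 a higher mean in the knockout, 7 were without overlap and lower (33.3%, against 5.31% of all genes), and the median was -0.28. Hsd3b5, a steroid reductase typical of male liver, read 6.62, 5.92 and 4.21 against 9.49, 8.20 and 6.63 (-2.52, SE 0.618, adjusted p = 0.449). The chow arrays were spread over more than 2 units, and the highest knockout array all but met the lowest chow array. Slco1a1, an organic anion carrier, read 9.04, 8.09 and 6.88 against 10.86, 9.77 and 8.88 (-1.84, SE 0.589, adjusted p = 0.727). Cyp2d9 had -1.003, Keg1 -0.63 and Ugt2b1 -0.39, the last with 11.49, 11.58 and 11.18 against 11.86, 11.80 and 11.77 (adjusted p = 0.584). The level of the group was 0.04, -0.01 and -0.30 against 0.52, 0.15 and 0.05, so chow replicate 1 was the highest and knockout replicate 3 the lowest. Without chow replicate 1 the median was -0.16, and without HDAC6 knockout replicate 2 it was -0.43. The high-fat arrays (-0.07, -0.02 and -0.02) and the HDAC9 knockout arrays (-0.21, -0.03 and -0.15) also lay below every chow array.

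Female-biased genes had 13 higher and 4 lower means of 17, with 3 without overlap in each direction (Cyp2b9, Sult3a1 and Abcd2 higher, and Fmo2, Cux2 and Cyp39a1 lower). Sult3a1, a sulfotransferase, had a mean of 11.27 against 10.58 (0.69, adjusted p = 0.760). Cux2, a female-specific transcription factor, went the other way, with 7.05, 7.11 and 7.41 against 7.50, 7.96 and 7.66 (-0.52, adjusted p = 0.722), as did Fmo2 (-0.43, adjusted p = 0.585). The median of 0.26 became -0.02 without chow replicate 1, 0.41 without chow replicate 2 and 0.42 with array weights. Against the same chow arrays, the median of these genes was 0.25 in the HDAC9 knockout and 0.34 on high fat. In the growth hormone and STAT5 group, 12 of 16 had a lower mean, and Socs2, a direct STAT5 target, read 9.56, 8.90 and 8.91 against 9.87, 9.66 and 10.37 (-0.85, SE 0.331, adjusted p = 0.794). The median of this group was -0.17, beside -0.13 in the HDAC9 knockout and -0.27 on high fat against the same chow arrays.

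Genes of macrophages had higher means in the knockout. Of 31 markers of Kupffer cells and macrophages, 24 had a higher and 7 a lower mean, 8 were without overlap and higher (25.8%, against 4.83% of all genes), none was without overlap and lower, and the median was 0.20. Marco, a scavenger receptor, read 6.88, 7.67 and 6.82 against 5.89, 6.57 and 6.01 (0.97, SE 0.225, adjusted p = 0.349). Mpeg1, a pore-forming protein of phagocytes, had 0.53, Cybb, the oxidase subunit, 0.44 and Cd68 0.31. Of genes that define resident Kupffer cells, Clec4f read 9.41, 9.38 and 9.42 against 9.64, 9.49 and 9.15 (-0.03), and Vsig4 and Cd5l had 0.19 and 0.25, beside 0.20 for the gene group. In whole liver, more cells of a type and more RNA per cell cannot be told apart. The median was 0.13 without chow replicate 3 and 0.29 with array weights. The levels were 0.02, 0.06 and -0.02 against -0.15, 0.03 and -0.35, with chow replicate 2 among the knockout arrays and chow replicate 3 lowest of all 12. The HDAC9 knockout (0.12, 0.13 and -0.06) and high-fat arrays (0.16, 0.12 and -0.02) overlapped the HDAC6 knockout arrays.

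Genes of antigen presentation by MHC class II had 13 higher and 2 lower means, with a median of 0.24. Ciita, their master regulator, read 5.05, 5.22 and 5.40 against 4.64, 4.67 and 4.65 (0.57, SE 0.123, adjusted p = 0.292). H2-Eb1 read 8.49, 8.60 and 9.05 against 7.71, 8.56 and 7.74 (0.71, adjusted p = 0.793), so chow replicate 2 stood with the knockout, as it did for the gene group as a whole (0.24, against -0.24 and -0.30 in the other chow arrays). Without chow replicate 3 the median was 0.12, and with genes under the 50th percentile removed it was 0.42. Of cytokine and chemokine genes, 19 of 30 had a higher mean. Il1b read 6.20, 6.17 and 5.89 against 5.49, 5.78 and 5.46 (0.51, SE 0.127, adjusted p = 0.486), and Cxcl13, a chemokine for B cells, 6.67, 7.24 and 6.67 against 6.19, 6.43 and 6.06 (0.63, SE 0.166, adjusted p = 0.559). Monocyte markers had 5 higher and 2 lower means of 7 and a median of 0.13, which was 0.01 without HDAC6 knockout replicate 3. The medians of other blood cells moved with single arrays. That of neutrophils was 0.01, and -0.12 to 0.12 with 1 array left out. That of T and NK cells was 0.01 (-0.02 to 0.09), that of B and plasma cells 0.06 (-0.02 to 0.20), and that of erythroid cells -0.05 (-0.13 to 0.0026). With genes under the 50th percentile removed, the B and plasma cell value was 0.76. That equals the largest log2 fold change of any single member, so it does not summarise the gene group.

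In metabolism the picture was mixed. Of 24 genes of fatty acid synthesis, 21 had a higher mean, with a median of 0.17, but 2 were without overlap and higher and 1 without overlap and lower. Elovl5, an elongase of polyunsaturated fatty acids, read 12.86, 12.88 and 12.81 against 12.42, 12.66 and 12.53 (0.31, SE 0.087, adjusted p = 0.625). Fasn, fatty acid synthase, read 11.41, 11.67 and 11.60 against 10.98, 11.56 and 10.67 (0.49, SE 0.351). Elovl2 went the other way (-0.29, adjusted p = 0.810). Chow replicate 2 had the highest level of this group (0.22, against -0.14 and -0.21), and without it the median was 0.33. Without HDAC6 knockout replicate 1 it was 0.29, and with array weights 0.30. It fell to 0.12 without chow replicate 3.

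G6pc, the last enzyme of glucose release, read 11.77, 11.49 and 11.30 against 10.69, 10.71 and 10.94 (0.74, SE 0.170, adjusted p = 0.325). The gluconeogenesis and glycogen genes as a group had a median of 0.03. Genes of the periportal zone of the lobule, to which G6pc and Hal belong, had 14 higher and 3 lower means of 17 and a median of 0.10. Their levels were 0.08, 0.06 and 0.07 against -0.11, -0.10 and 0.01, without overlap. The median was 0.16 without chow replicate 1, 0.18 without suffixed probe sets and 0.04 with array weights. Genes of the pericentral zone had 19 lower and 4 higher means of 23 and a median of -0.12, with Cyp2c50 at -0.35 (12.55, 12.78 and 12.34 against 12.86, 12.92 and 12.93, adjusted p = 0.759). Glul, the glutamine synthetase of the cells around the central vein, read 11.58, 11.56 and 11.38 against 11.57, 11.70 and 11.70 (-0.15), and the levels of the group overlapped (0.01, 0.14 and -0.15 against 0.02, 0.06 and 0.15). Without HDAC6 knockout replicate 3 the pericentral median was -0.01, and without chow replicate 3 it was -0.06. With array weights it was 0.0010.

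Of 15 genes of iron handling, 9 had a higher and 6 a lower mean, with a median of 0.07. Those of smallest p were Smad7 and Id1, which the BMP pathway induces in hepatocytes together with hepcidin. Smad7 read 8.09, 8.33 and 8.37 against 7.87, 7.38 and 7.43 (0.70, SE 0.160, adjusted p = 0.317), and Id1 read 7.91, 7.95 and 8.06 against 7.65, 6.84 and 6.75 (0.89, SE 0.317, adjusted p = 0.759). Both were without overlap, and for both chow replicate 1 was the nearest to the knockout. Hamp2, the second hepcidin gene, read 13.28, 13.58 and 13.73 against 12.21, 13.43 and 13.24 (0.57, adjusted p = 0.833). Over the alternative settings Hamp2 ran from 0.07 to 0.80.

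Pathways with medians close to that of all genes included oxidative phosphorylation (-0.02 over 54 genes), fatty acid oxidation and ketogenesis (0.04 over 20), targets of CAR and PXR (0.01 over 17), acute phase proteins (0.00 over 29), complement and coagulation (-0.03 over 36) and collagens and other genes of stellate cells (0.04 over 29). Of the complement and coagulation genes, 7 (19.4%, against 5.31% of all genes) were without overlap and lower, and none without overlap and higher. Of the stellate cell genes, 5 (17.2%, against 4.83% of all genes) were without overlap and higher, and 2 (6.9%) without overlap and lower. In the CAR and PXR group, the drug-sensing receptors' targets, 9 of 17 had a higher and 8 a lower mean, from -0.91 to 1.29, and the median became -0.12 without HDAC6 knockout replicate 2. Cyp2b9 (0.30) was without overlap and higher. Without overlap and lower were 6 of 17 (35.3%, against 5.31% of all genes): Alas1, Cyp2c54 (-0.64), Cyp2c50 (-0.35), Cyp2c37 (-0.12), Cyp3a11 (-0.12) and Cyp3a13 (-0.10), none past the threshold. Lrat, the retinol-esterifying enzyme of stellate cells, had the smallest p in the stellate group, with 5.34, 5.93 and 6.15 against 5.21, 5.31 and 4.68 (0.74, SE 0.221, adjusted p = 0.699). The circadian group had a median log2 fold change of -0.01, although its level was lower in all 3 knockout arrays (-0.11, -0.11 and -0.13) than in chow (0.02, 0.07 and -0.04). Its member Nr1d1, the repressor REV-ERB alpha, read 6.48, 6.96 and 7.45 against 5.95, 6.53 and 6.00 (0.80, SE 0.250, adjusted p = 0.722), and Usp2 had -0.72 without overlap (adjusted p = 0.734).

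To see which differences were not those of the chow arrays, the HDAC6 knockout was also set directly against the other 2 groups. Against the HDAC9 knockout, 1 of 12393 genes passed (0.00807%), Hdac6 (-1.70, SE 0.133, adjusted p = 3.97e-05). Against the high-fat livers 18 passed (0.145%), 7 higher (0.0565%) and 11 lower (0.0888%) in the HDAC6 knockout. For 10 of these 18 the knockout arrays overlapped the chow arrays, and for the other 8 they did not. Cyp2b10, a drug-metabolising P450, read 8.70, 9.28 and 9.54 in the knockout, 8.95, 8.99 and 9.11 in chow and 5.005, 5.69 and 5.32 on high fat (knockout minus high fat 3.83, SE 0.223, adjusted p = 7.14e-07). The immediate-early gene Jun read 6.20, 5.68 and 5.99 in the knockout, 5.94, 5.74 and 6.21 in chow and 8.70, 8.59 and 8.37 on high fat (-2.59, SE 0.201, adjusted p = 1.70e-05). The knockout and chow arrays also overlapped for Dusp1 and Zfp36, which damp stress signalling, for Cebpb, Fabp2, Gnpda1 and Stap1 among the lower genes, and for Dnase2a and Ces2a among the higher ones. Of these, Dnase2a lay furthest from chow by mean (-0.41).

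For Hdac6, Rab38, Slc22a7, Cd36, Mme, Col4a5, Adgrf1 and Bco1 every knockout array lay on 1 side of every chow array. Slc22a7 was lowest in the knockout (7.74, 7.79 and 7.76), between in chow (8.46, 8.24 and 8.41) and highest on high fat (9.03, 9.06 and 9.17), with a knockout minus high-fat difference of -1.32 (SE 0.134, adjusted p = 0.000289). Cd36, a fatty acid translocase, read 8.83, 9.02 and 9.34 in the knockout, 7.91, 8.78 and 8.42 in chow and 8.03, 7.92 and 7.77 on high fat (knockout minus high fat 1.15, SE 0.180, adjusted p = 0.0150). Mme, the peptidase neprilysin, read 8.98, 8.98 and 8.82 in the knockout, 8.50, 8.57 and 8.55 in chow and 7.51, 8.20 and 8.22 on high fat (0.95, SE 0.155, adjusted p = 0.0221). Col4a5 (0.87), Adgrf1 (-0.68) and Bco1 (-0.68), the enzyme that cleaves beta-carotene, completed the list, all with chow between the other 2 groups by mean.

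**Figure D5:**
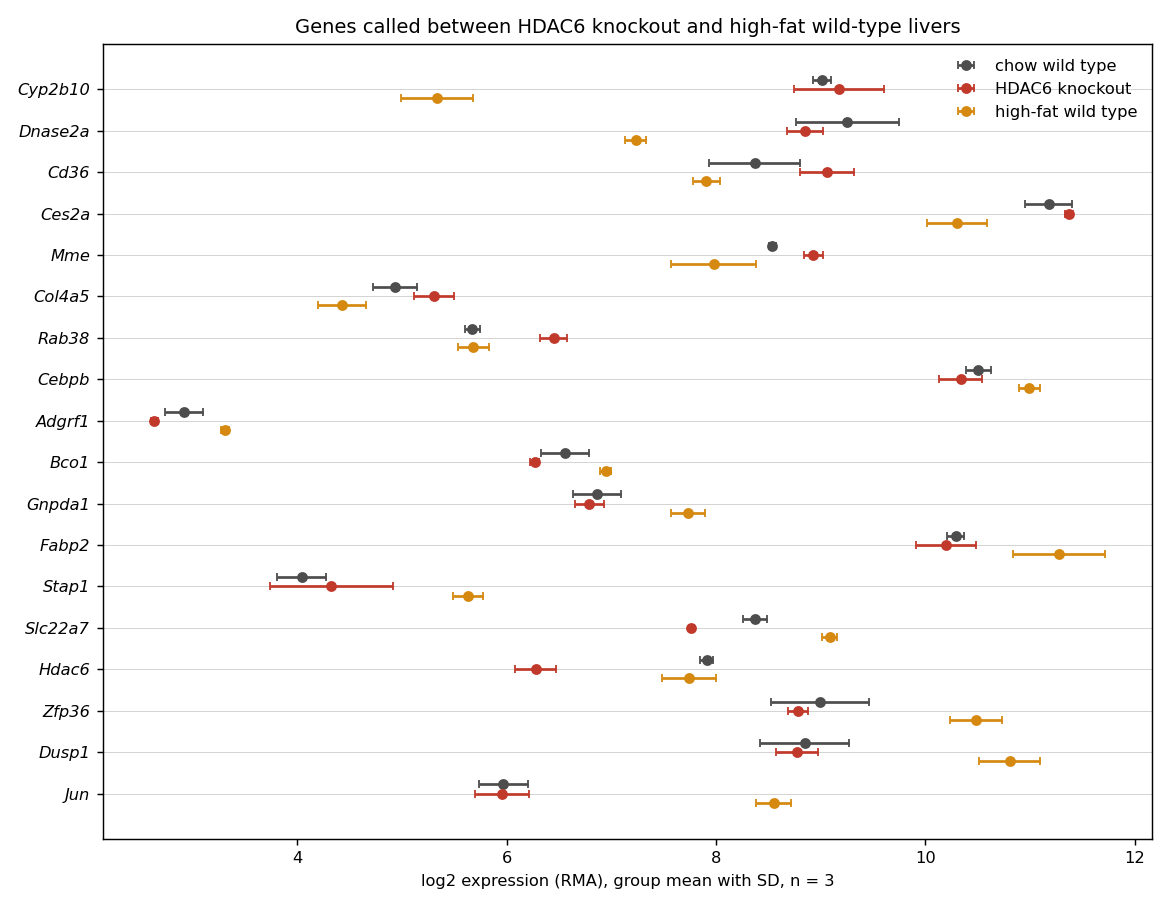
Group means with SD (n = 3) of log2 expression for the 18 genes with an adjusted p under 0.05 between HDAC6 knockout and high-fat livers, with the chow group for reference. For Cyp2b10, Jun, Dusp1 and Zfp36 the knockout and chow means lie together and the high-fat mean apart, for Hdac6 and Rab38 the knockout mean lies apart, and for Slc22a7 all 3 are separate.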

How the data were processed

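The deposited values are log2 expression per probe set; the authors normalized them with RMA, per the submitters' processing notes, which gave no version or genome build. The table held 22626 probe sets, of which 20380 had 1 gene symbol in the platform annotation, 691 had several and 1555 had none. Each gene was represented by the probe set of highest mean over 12 arrays, which left 12393 genes.

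Groups came from the labels. limma 3.58.1 in R 4.3.3 was fitted to all 12 arrays in 4 groups, with eBayes and a mean-variance trend. P-values were adjusted by Benjamini-Hochberg over all genes and called under 0.05. With 3 arrays per group, the number of arrays limits the precision, and an exact permutation test of 1 value could not go below 0.1. The fit was tested on simulated data with independent normal noise. That noise carried no differences in spread between arrays, so the simulation does not show how the fit performs with them.

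Genes were named by a rule: the deacetylases, sirtuins and called genes, the 12 of smallest p in each direction, the 10 largest differences in each direction among genes at an unadjusted p under 0.05 with a higher group mean above the median gene, up to 4 members of smallest p and the defining members of each gene group described, and neighbours of called genes. Members of counts of 5 or fewer, the 6 CAR and PXR targets, genes of the contrast with high fat and genes with a promoter match were named outside that rule, after their values were seen. The comparison and gene groups were chosen with earlier results of these data known. Promoters came from RefSeq (GRCm38.p6). Alternatives covered the variance prior, arrays in the fit, array weights (estimated gene by gene because the default did not converge), normalization, filters, probe set choice, the replicate block, thresholds and leaving out each array.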

Additional observations from a re-analysis of the deposited data

Results flagged for a closer look

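The Hdac6 transcript differed between the 2 knockouts. Knockout minus HDAC9 knockout was -1.70 (SE 0.133, limma adjusted p = 3.97e-05), with all 3 HDAC6 knockout arrays below all 3 HDAC9 knockout arrays.

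Probe sets with several gene symbols or none were left out of the comparisons of genes, and their p-values were adjusted over these 2246 alone. An adjusted p here is therefore not on the same footing as one over 12393 genes, and adjustment over the whole array was not done. Of the 2246, 1 passed the threshold and 131 had an unadjusted p under 0.05. It read 7.58, 7.39 and 7.17 in the HDAC6 knockout and 5.33, 5.42 and 5.39 in chow, a difference of 2.00 (SE 0.297, limma adjusted p = 0.0330, higher in 3 of 3 arrays). It has no single gene name here. It was 1.09 higher than in the HDAC9 knockout (limma adjusted p = 0.9998) and 1.01 higher than in the high-fat livers (adjusted p = 0.378), where replicate 2 reached 7.28. Neither passed the threshold.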

How the results depend on the processing

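With 3 arrays per group, only large or tight differences could pass. Hdac6 was called under all 18 alternatives, from -1.75 to -1.57 (limma adjusted p 8.36e-07 to 0.00122). Against chow, the count of 2 genes became 1 with only the 6 arrays, without HDAC9 knockout replicate 2 in the shared spread, under median centring or quantile normalization, with genes under the 50th percentile left out, with every probe set on its own, or at adjusted p under 0.01. It became 4 at adjusted p under 0.10 and 27 with array weights, and ran from 1 to 4 with 1 array left out (4 without HDAC6 knockout replicate 1). Against the HDAC9 knockout, the count of 1 became 3 with array weights and 2 with the mean of probe sets or the replicate block. Against high fat, the count of 18 became 36 with a robust prior, 52 without HDAC9 knockout replicate 2 in the spread, 342 with array weights, 31 without suffixed probe sets, 11 at adjusted p under 0.01 and 56 under 0.10, and ran from 8 (without HDAC6 knockout replicate 2) to 26 with 1 array left out. The causes were not tested. Same-numbered knockout and chow arrays correlated at 0.07, 0.10 and 0.13 in their deviations, so the numbers were not taken as pairs; the replicate block gave 3 calls against chow, Igfbp1 being the addition.

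Genes whose small differences from chow changed sign did so as follows, the cause not being tested. With array weights the values were Hdac1 0.032, Hdac2 0.0038, Hdac9 0.0092, Sirt3 -0.095, Tyr -0.015, Tuba4a 0.077, Tuba1a 0.020, Hspa5 0.033, Clec4f 0.018, Dusp1 0.11, Zfp36 0.032 and Gnpda1 0.032. With the mean of probe sets they were Fgfr4 0.096, Jun 0.055 and Cebpb 0.053. Median centring gave Alb -0.0056, quantile normalization gave Hdac9 0.0030, and leaving out suffixed probe sets gave Tyr -0.044. With 1 array left out, the ranges were Alb -0.0034 to 0.039, Hdac1 -0.088 to 0.032, Hdac2 -0.16 to 0.029, Hdac9 -0.12 to 0.12, Sirt1 -0.16 to 0.063, Sirt2 -0.044 to 0.014, Sirt3 -0.061 to 0.11, Sirt4 -0.024 to 0.11, Tyr -0.12 to 0.19, Pmel -0.19 to 0.080, Mitf -0.10 to 0.15, Tuba4a -0.14 to 0.061, Tuba1a -0.13 to 0.031, Hspa5 -0.16 to 0.031, Clec4f -0.16 to 0.083, Cyp2b10 -0.025 to 0.40, Jun -0.13 to 0.13, Dusp1 -0.23 to 0.17, Zfp36 -0.46 to 0.0030, Fabp2 -0.24 to 0.042, Gnpda1 -0.15 to 0.056 and Stap1 -0.053 to 0.50. Movement of group medians was scored only for gene groups whose median lay more than 0.1 from that of all genes. Over the alternatives, these medians moved by no more than the spread between arrays in 296 cases and by more in 10. The other gene groups were not scored, and some changed sign, as the circadian group did with array weights (0.15).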
